A study of Homo sapiens with 12 samples.

Results

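Matrix metalloproteinases (MMPs), their tissue inhibitors (TIMPs) and the urokinase system form the main machinery with which epithelial cancer cells cut the extracellular matrix. The genes described here are the collagenases MMP1 and MMP13, the gelatinases MMP2 and MMP9, the membrane-type protease MMP14, the inhibitors TIMP1, TIMP2 and TIMP3, urokinase (PLAU) and its receptor PLAUR. They were found in the count table by matching Ensembl identifiers to these symbols, and all 10 were present among 28747 gene identifiers. The RNA came from DU145, an established cell line of castration-resistant prostate cancer, which had been transduced with lentivirus and selected with puromycin as stable lines. The lines named shSigma in the labels carried a short hairpin RNA that defines the knockdown, and the shCtrl lines carried a control hairpin. Each line was grown as bulk adherent culture or as tumor spheres, which form without attachment and without serum at low density. The sphere medium held added insulin, FGF2 and EGF. Attachment, serum, density and medium therefore differed together between the cultures. The 4 groups were adherent shCtrl, adherent shSigma, tumor sphere shCtrl and tumor sphere shSigma with 3 replicates each. Which of the study's knockdown hairpins the sequenced cells carried is not given in the sources used here.

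Urokinase is a secreted serine protease that binds its receptor at the cell surface and turns plasminogen into plasmin, a protease of broad range that also activates several pro-MMPs. MMP1 and MMP13 cut fibrillar collagens, MMP2 and MMP9 cut denatured collagen and basement membrane collagen, and MMP14 (MT1-MMP) is anchored in the plasma membrane. TIMPs block MMPs, and TIMP2 has a further role, since MMP14 activates pro-MMP2 through a complex with TIMP2. AP-1 and ETS family transcription factors are textbook regulators of many of these genes in carcinoma cells.

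The libraries held 16472722 to 26957777 counts, and a count of 3 in a library, taken as the floor of detection, corresponded to 0.115 to 0.176 CPM, counts scaled to library size. The keratin, EPCAM and CDH1 markers of a carcinoma epithelium were detected in all 4 groups, with a summed level of 878 to 964 CPM in adherent shCtrl, 1140 to 1452 CPM in adherent shSigma, 2284 to 2348 CPM in sphere shCtrl and 896 to 954 CPM in sphere shSigma. EPCAM fell by 2.99 on the log2 scale with the knockdown in adherent cells and by 3.31 in spheres, and CDH1 fell by 1.23 and by 4.71. The keratins went the other way in adherent cells, where KRT8 rose by 0.76, KRT18 by 0.58 and KRT19 by 1.91 (not called without the adherent libraries numbered 1, at 1.63 with edgeR adjusted p = 0.124). In spheres KRT18 fell by 0.44 and KRT8 by 0.21 (edgeR adjusted p = 0.0304, and not called without sphere shSigma library 2 or 3 or sphere shCtrl library 1, at 0.0627 to 0.138), while KRT19 was at 0.13 (edgeR adjusted p = 0.0944, or 0.0390 without sphere shCtrl library 1). Fibroblast markers summed to 3.66 to 26.8 CPM, leukocyte markers to at most 2.00 CPM and endothelial markers to at most 1.29 CPM. Of the fibroblast markers LUM and DCN were at or under the floor, and COL1A1 was the highest in every group. COL1A1 had a mean of 5.20 CPM in adherent shCtrl, 4.51 in adherent shSigma, 22.6 in sphere shCtrl and 11.98 CPM in sphere shSigma. Its fall with knockdown was called in spheres (-0.92, edgeR adjusted p = 4.34e-04). COL1A2 had 1.70, 0.196, 1.55 and 0.0848 CPM in the same order of groups. KLK3, which encodes prostate-specific antigen, was at or under the floor. The 2 adherent libraries numbered 3 deviated from their group means in opposite directions (Pearson r = -0.902 across 10798 genes, which are not independent), and so did those numbered 1 (r = -0.726). Without both adherent libraries numbered 3 the adherent comparison called 8474 genes in place of 6886 and the difference between knockdown effects 5672 in place of 4024, and without those numbered 1 the counts were 4761 and 3664. Where a call in adherent cells of a gene named here, or any call of the 10 genes, changed without either pair, that value is given as well. In bulk RNA, fewer cells that express a gene and less RNA per cell cannot be told apart.

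Levels of the 10 genes in each library are given below in CPM scaled over all 12 libraries, and levels of different genes are set side by side per kilobase of exon (RPKM). Log2 fold changes, standard errors (SE) and p-values were obtained with the quasi-likelihood test of edgeR, p-values were adjusted by Benjamini-Hochberg across the whole table, and an adjusted p under 0.05 was the threshold for a call. Of the 10 genes, PLAU, PLAUR, MMP1, MMP14, TIMP1 and TIMP2 passed the filter on low counts in every comparison. MMP13 passed in 3 of 5, since its counts were low outside sphere shCtrl. MMP1 and MMP13 passed only through the groups in which they were high, adherent shSigma and sphere shCtrl for MMP1 and sphere shCtrl for MMP13, so their folds and p-values are descriptions and they are left out of the counts over the set. MMP2, MMP9 and TIMP3 passed in none and are described by their counts.

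**Figure D1:**
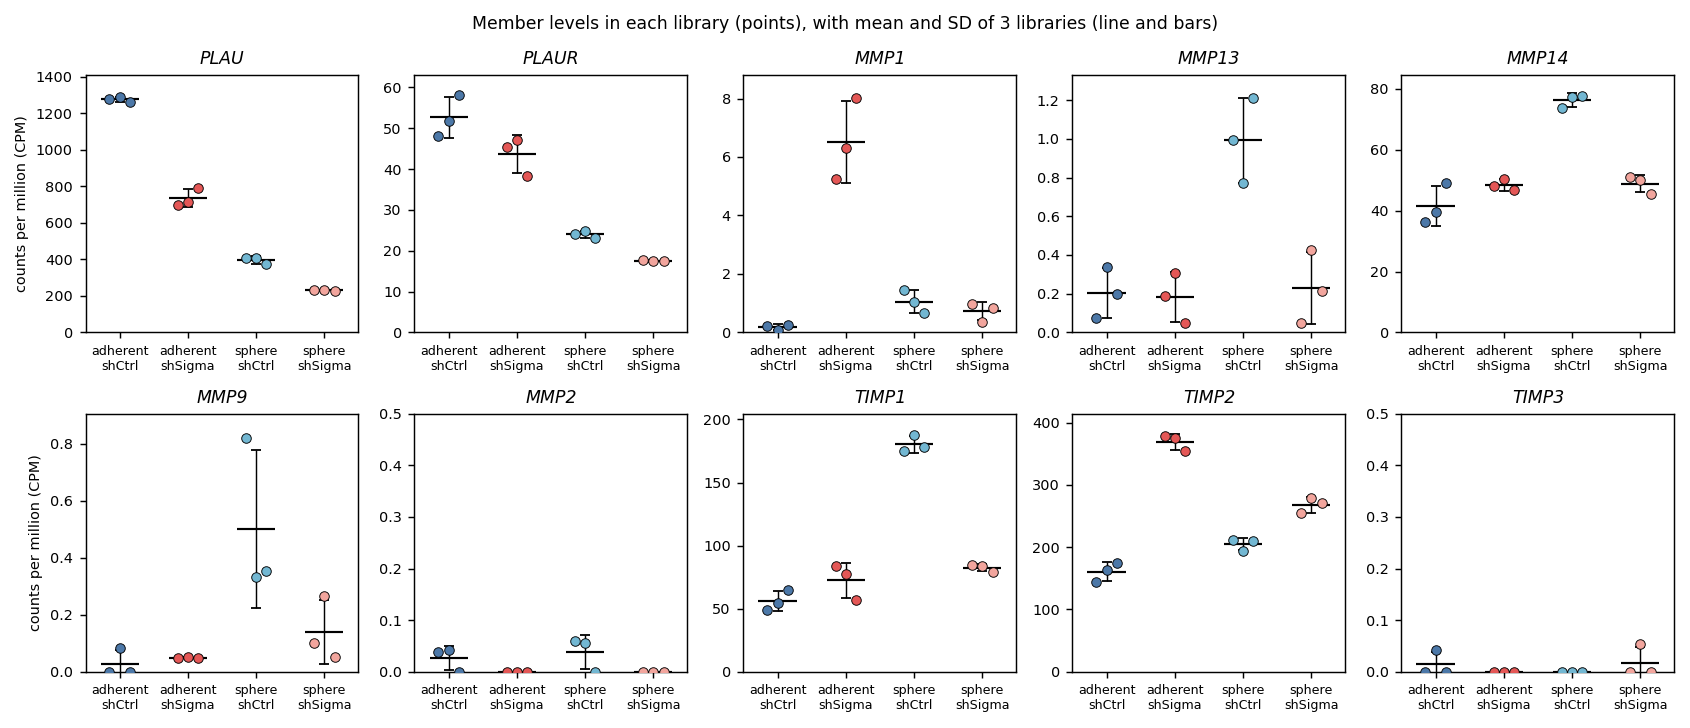
Level of each of the 10 genes in CPM (vertical axis, from 0, with its own range in each panel) in the 4 groups (horizontal axis). Points are single libraries, the horizontal line is the mean and the bars are the SD of 3 libraries. PLAU falls from between 1259 and 1291 CPM in adherent shCtrl to between 229 and 232 CPM in sphere shSigma, MMP1 stands out in adherent shSigma, and MMP13, MMP14, MMP9 and TIMP1 stand out in sphere shCtrl.

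PLAU, urokinase itself, was the most abundant of the 10 transcripts in adherent cells, and it was lower with knockdown in both cultures. The gene (ENSG00000122861) lies on the plus strand at chr10:73909177-73917496 in GRCh38. Its level was 1277, 1291 and 1259 CPM in the adherent shCtrl libraries and 699, 716 and 792 CPM in adherent shSigma. In tumor spheres it was 407, 408 and 373 CPM in shCtrl and 232, 232 and 229 CPM in shSigma. The 4 groups did not overlap, in the order sphere shSigma, sphere shCtrl, adherent shSigma and adherent shCtrl. With knockdown PLAU was 1.81-fold lower in adherent cells (log2 fold change -0.86, SE 0.0662, edgeR adjusted p = 5.59e-05) and 1.72-fold lower in spheres (-0.78, SE 0.0523, edgeR adjusted p = 1.66e-07). The difference between these effects, spheres minus adherent cells, was 0.015 on the log2 scale with an SE of 0.0906 (edgeR adjusted p = 0.929). Spheres had 3.22-fold less PLAU than adherent cells in shCtrl (-1.69, SE 0.0665, edgeR adjusted p = 1.05e-06) and 3.14-fold less in shSigma (-1.65, SE 0.0497, edgeR adjusted p = 6.82e-07).

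A second transcript of the PLAU locus behaved otherwise. C10orf55, a long non-coding RNA on the opposite strand, shares 915 exonic bases with PLAU. It had 633, 579 and 677 counts in adherent shCtrl, 79, 74 and 77 in adherent shSigma, 447, 509 and 472 in sphere shCtrl and 22, 19 and 21 in sphere shSigma. With knockdown it fell by 2.80 on the log2 scale in adherent cells (SE 0.0975, edgeR adjusted p = 3.48e-06) and by 4.59 in spheres (SE 0.133, edgeR adjusted p = 1.98e-10), and these effects differed by -1.84 (SE 0.157, edgeR adjusted p = 1.64e-06). Between cultures of shCtrl cells C10orf55 differed by 0.05 (SE 0.0931, edgeR adjusted p = 0.696), where PLAU fell by 1.69. The library kit keeps strand, but the use of strand in counting is not given in the sources used here, and without it reads of the shared bases could not be assigned to either gene. C10orf55 counts amounted to 1.97% of the PLAU counts in adherent shCtrl, 0.510% in adherent shSigma, 6.56% in sphere shCtrl and 0.466% in sphere shSigma.

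PLAUR, the glycolipid-anchored receptor that holds urokinase at the cell surface, had the same order of groups as its ligand at a far lower level. The gene (ENSG00000011422) lies on the minus strand at chr19:43646095-43670547. Adherent shCtrl libraries had 48.1, 51.8 and 58.1 CPM and adherent shSigma libraries 45.5, 47.0 and 38.4 CPM. Sphere shCtrl libraries had 23.997, 24.8 and 23.2 CPM and sphere shSigma libraries 17.7, 17.4 and 17.4 CPM. No groups overlapped, although the adherent groups came close, with the highest shSigma library at 47.0 and the lowest shCtrl library at 48.1 CPM. The fall with knockdown in spheres was 1.38-fold (-0.46, SE 0.0765, edgeR adjusted p = 2.64e-04). In adherent cells it was 1.26-fold and only just called (-0.33, SE 0.115, edgeR adjusted p = 0.0470). That call was lost when any single adherent shSigma library or adherent shCtrl library 2 or 3 was left out (edgeR adjusted p = 0.0749 to 0.145). Without both adherent libraries numbered 3 the value was -0.16 (edgeR adjusted p = 0.135), and without both numbered 1 it was -0.36 (edgeR adjusted p = 0.0757). The effects in the 2 cultures differed by -0.19 (SE 0.129, edgeR adjusted p = 0.311), or by -0.28 (edgeR adjusted p = 0.0477) without the adherent libraries numbered 3. Spheres had 2.19-fold less PLAUR than adherent cells in shCtrl (-1.13, SE 0.0916, edgeR adjusted p = 3.58e-05) and 2.46-fold less in shSigma (-1.30, SE 0.103, edgeR adjusted p = 5.82e-05).

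As a description, promoters were searched for the binding motifs of AP-1 (TGANTCA) and of the ETS factor PEA3 (AGGAAG) on both strands. Regulation by these factors was not tested. RefSeq promoter windows of 300 bases in GRCh38.p14, running from 250 bases before to 50 bases after a transcription start, were at hand for 5 of the 10 genes, namely PLAU with 2 starts, PLAUR, MMP14, TIMP1 and TIMP3. The matches found are shown with 30 bases of their window, 5′ to 3′ on the strand of the gene, with the motif in capitals:
PLAU, PEA3, chr10:73910899-73910928, plus strand: caggtgcatgggAGGAAGcacggagaattt
PLAUR, AP-1, chr19:43670337-43670366, minus strand: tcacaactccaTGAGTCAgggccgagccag
PLAUR, PEA3 on the opposite strand, chr19:43670170-43670199, minus strand: ccacaaaactgcctcCTTCCTgaggccaga
TIMP1, PEA3, chrX:47582337-47582366, plus strand: agtaatgcatccAGGAAGcctggaggcctg
The PLAU match begins 221 bases before the second of its starts, the PLAUR matches 186 and 15 bases before its start, and the TIMP1 match 87 bases before its start. The PLAUR windows overlap annotated exons of PLAUR in GENCODE. The windows of MMP14 and TIMP3 and the first window of PLAU held neither motif. An AP-1 match was present in 7.71% and a PEA3 match in 33.6% of all 35116 RefSeq windows of this length, and a match describes letters only.

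MMP1, interstitial collagenase, showed the largest change of the 10 genes. The gene (ENSG00000196611) lies on the minus strand at chr11:102789401-102798160. It had 6, 2 and 6 counts in the adherent shCtrl libraries and 110, 123 and 166 counts in adherent shSigma, or 0.184 ± 0.086 against 6.51 ± 1.40 CPM (SD, n = 3). In spheres it had 25, 19 and 13 counts in shCtrl and 19, 7 and 16 in shSigma, or 1.06 ± 0.404 against 0.725 ± 0.312 CPM. Adherent shSigma stood above all other groups, adherent shCtrl below them, and both sphere groups overlapped in between. The rise with knockdown in adherent cells, where MMP1 passed the filter through the shSigma libraries alone, was 5.02 on the log2 scale (SE 0.306, edgeR adjusted p = 2.25e-05). The ratio of pooled levels, with 399 against 14 counts, was 34.9, with an exact 95% counting interval of 20.6 to 64.4. This interval and those given below for pooled levels leave out variation between libraries. In spheres the knockdown effect was -0.51 (SE 0.380, edgeR adjusted p = 0.262), and the 2 effects differed by -5.59 (SE 0.569, edgeR adjusted p = 8.16e-06). Spheres had more MMP1 than adherent cells in shCtrl (2.45, SE 0.458, edgeR adjusted p = 0.00273, pooled ratio 5.55 with an interval of 3.05 to 10.8) and less in shSigma (-3.12, SE 0.285, edgeR adjusted p = 1.16e-04, pooled level 8.93-fold lower with an interval of 6.49 to 12.6). Even in adherent shSigma MMP1 stayed at 2.38 ± 0.510 RPKM, far below PLAU at 249 ± 16.8 RPKM in the same cells.

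MMP13, collagenase 3, was near the floor in all groups but sphere shCtrl. The gene (ENSG00000137745) lies on the minus strand of the same chromosome at chr11:102942995-102955732. Its counts were 17, 14 and 24 in sphere shCtrl, 1, 8 and 4 in sphere shSigma, 2, 8 and 5 in adherent shCtrl and 4, 6 and 1 in adherent shSigma. Sphere shCtrl, at 0.992 ± 0.218 CPM, lay above the other groups, which overlapped at means of 0.182 to 0.229 CPM. Having passed the filter through sphere shCtrl alone, MMP13 was lower with knockdown in spheres (-2.12, SE 0.469, edgeR adjusted p = 0.00209), with pooled levels 4.43-fold lower and an interval of 2.39 to 8.83. In shCtrl cells spheres exceeded adherent cells (2.28, SE 0.435, edgeR adjusted p = 0.00300), with a pooled ratio of 4.999 and an interval of 2.78 to 9.53. The difference between the knockdown effects in the 2 cultures was -1.96 (SE 0.960, edgeR adjusted p = 0.149). At 11 against 15 counts a change with knockdown in adherent cells was not detectable at this depth (pooled ratio 0.898, interval 0.373 to 2.09).

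The gelatinases were almost silent. MMP2 (ENSG00000087245, chr16:55389700-55506691, plus strand) had 1, 1 and 0 counts in adherent shCtrl, 1, 1 and 0 in sphere shCtrl and 0 in every shSigma library, all at or under the floor. MMP9 (ENSG00000100985, chr20:46008908-46016561, plus strand) had 0, 2 and 0 counts in adherent shCtrl and 1, 1 and 1 in adherent shSigma. In spheres it had 14, 6 and 7 counts in shCtrl and 2, 5 and 1 in shSigma. MMP9 was therefore above the floor in every sphere shCtrl library and these did not overlap any other group. With 8 against 27 counts the pooled level in spheres was 3.53-fold lower with knockdown, with an interval of 1.56 to 8.99, and with 27 against 2 counts it was 18.4-fold higher in shCtrl spheres than in shCtrl adherent cells, with an interval of 4.62 to 159.7. These intervals cover counting error only and leave out variation between libraries, and reads carry no molecular identifiers. With the filter MMP9 was not tested, and without it the value was -1.78 for knockdown in spheres (edgeR adjusted p = 0.0112, but 0.0725 in DESeq2) and 3.92 between cultures of shCtrl cells (edgeR adjusted p = 0.00182, and 0.00589 in DESeq2). SLC12A5-AS1 on the opposite strand shares 430 exonic bases with MMP9 and had 18 to 59 counts per library, more than MMP9 in every one. The limit on strand in counting given for PLAU and C10orf55 holds for this pair too.

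MMP14, the membrane-anchored protease, was the most abundant MMP of the set and was highest in control spheres. The gene (ENSG00000157227) lies on the plus strand at chr14:22836560-22849041. Its level was 73.8, 77.5 and 77.7 CPM in sphere shCtrl. It was 51.0, 50.0 and 45.6 CPM in sphere shSigma, 36.4, 39.4 and 49.0 CPM in adherent shCtrl and 48.1, 50.5 and 46.7 CPM in adherent shSigma. Sphere shCtrl did not overlap the rest, and the other 3 groups overlapped each other. MMP14 was 1.57-fold lower with knockdown in spheres (-0.65, SE 0.0644, edgeR adjusted p = 4.49e-06). In adherent cells the knockdown effect was 0.16 (SE 0.112, edgeR adjusted p = 0.268), but 0.33 and called (edgeR adjusted p = 0.0145) without both adherent libraries numbered 3. The effects differed between cultures by -0.86 (SE 0.136, edgeR adjusted p = 3.33e-04). Spheres were 1.83-fold above adherent cells in shCtrl (0.88, SE 0.111, edgeR adjusted p = 3.81e-04), whereas in shSigma the difference was 0.034 (SE 0.0731, edgeR adjusted p = 0.723) and turned to -0.011 (edgeR adjusted p = 0.899) without adherent shSigma library 3.

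TIMP1, a secreted inhibitor of most soluble MMPs, followed the pattern of MMP14 with a larger span. The gene (ENSG00000102265) lies on the plus strand at chrX:47582408-47586789, within the span of SYN1 on the opposite strand, with which it shares 0 exonic bases and which had 0 to 3 counts. Sphere shCtrl libraries had 175, 188 and 178 CPM, sphere shSigma libraries 84.4, 83.8 and 79.3 CPM. Adherent shCtrl libraries had 48.6, 54.5 and 64.9 CPM and adherent shSigma libraries 83.6, 77.2 and 56.8 CPM. Control spheres stood above every other library, and the adherent groups overlapped, but not without their libraries numbered 3. TIMP1 was 2.19-fold lower with knockdown in spheres (-1.13, SE 0.0538, edgeR adjusted p = 9.91e-09). In adherent cells the effect was 0.32 (SE 0.181, edgeR adjusted p = 0.189), and it was called at 0.49 (edgeR adjusted p = 0.00835) without adherent shSigma library 3 and at 0.59 (edgeR adjusted p = 9.60e-04) without both adherent libraries numbered 3. The effects differed by -1.501 (SE 0.183, edgeR adjusted p = 7.54e-05). In shCtrl cells TIMP1 was 3.22-fold higher in spheres than in adherent cells (1.69, SE 0.104, edgeR adjusted p = 8.84e-06), and in shSigma cells the difference was 0.20 (SE 0.160, edgeR adjusted p = 0.331).

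TIMP2, the inhibitor that also bridges MMP14 and pro-MMP2, was the only one of the tested genes that rose with knockdown in both cultures. The gene (ENSG00000035862) lies on the minus strand at chr17:78852977-78925387. Adherent shCtrl libraries had 144, 164 and 174 CPM and adherent shSigma libraries 379, 375 and 354 CPM. Sphere shCtrl libraries had 212, 195 and 209 CPM and sphere shSigma libraries 254, 279 and 271 CPM. The 4 groups did not overlap and ran from adherent shCtrl over sphere shCtrl and sphere shSigma to adherent shSigma. The rise was 2.21-fold in adherent cells (1.14, SE 0.0832, edgeR adjusted p = 4.44e-05) and 1.30-fold in spheres (0.38, SE 0.0576, edgeR adjusted p = 1.27e-04), a difference of -0.82 (SE 0.103, edgeR adjusted p = 5.58e-05). In shCtrl spheres TIMP2 was above adherent cells (0.35, SE 0.0802, edgeR adjusted p = 0.00692) and in shSigma spheres below them (-0.44, SE 0.0637, edgeR adjusted p = 0.00107). CEP295NL, which shares 224 exonic bases with TIMP2 on the same strand, had 1 to 12 counts. TIMP3 (ENSG00000100234, chr22:32801705-32863041, plus strand), the matrix-bound inhibitor, had 1 count in 1 adherent shCtrl library, 1 count in 1 sphere shSigma library and 0 in the other 10 libraries.

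Over the 5 genes that reached the filter's cutoff in every group, namely PLAU, PLAUR, MMP14, TIMP1 and TIMP2, the knockdown called 3 in adherent cells, where 50.0% of 13764 genes were called. TIMP2 was higher and PLAU and PLAUR were lower, beside 22.3% of all genes called higher and 27.7% called lower. TIMP2 also exceeded an absolute log2 fold change of 1, as did 13.7% of all genes. In spheres all 5 were called, where 61.1% of 13774 genes were. TIMP2 was higher and MMP14, TIMP1, PLAU and PLAUR were lower, beside 30.2% of all genes called higher and 30.9% lower, and TIMP1 passed the log2 fold change of 1, as 13.1% of all genes did. The median log2 fold change over the 5 genes was 0.16 in adherent cells and -0.65 in spheres, and -0.014 and 0.0015 over all genes tested.

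Between cultures of shCtrl cells the same 5 genes were all called, where 53.7% of 13800 genes were. MMP14, TIMP1 and TIMP2 were higher in spheres and PLAU and PLAUR lower, beside 27.4% of all genes called higher and 26.3% lower. TIMP1, PLAU and PLAUR passed a log2 fold change of 1, as 15.8% of all genes did. In shSigma cells 3 of 5 were called, namely TIMP2, PLAU and PLAUR, all lower in spheres, where 47.1% of 13622 genes were called, 21.9% higher and 25.2% lower. PLAU and PLAUR passed the log2 fold change of 1, as 9.32% of all genes did. These comparisons share their groups of libraries with the knockdown comparisons and are not independent of them.

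The knockdown effect differed between cultures for 3 of 5 genes, namely MMP14, TIMP1 and TIMP2, where 28.4% of 14175 genes differed. All 3 effects were lower in spheres than in adherent cells, beside 15.6% of all genes with a lower and 12.7% with a higher effect. The difference for TIMP1 exceeded 1 on the log2 scale, as did 8.54% of all genes. The epithelial markers moved with culture and hairpin too. All 5 were called with a lower knockdown effect in spheres, and their summed level was highest in sphere shCtrl, the group in which MMP13, MMP14, MMP9 and TIMP1 were highest. Their part in these results was not tested.

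**Figure D2:**
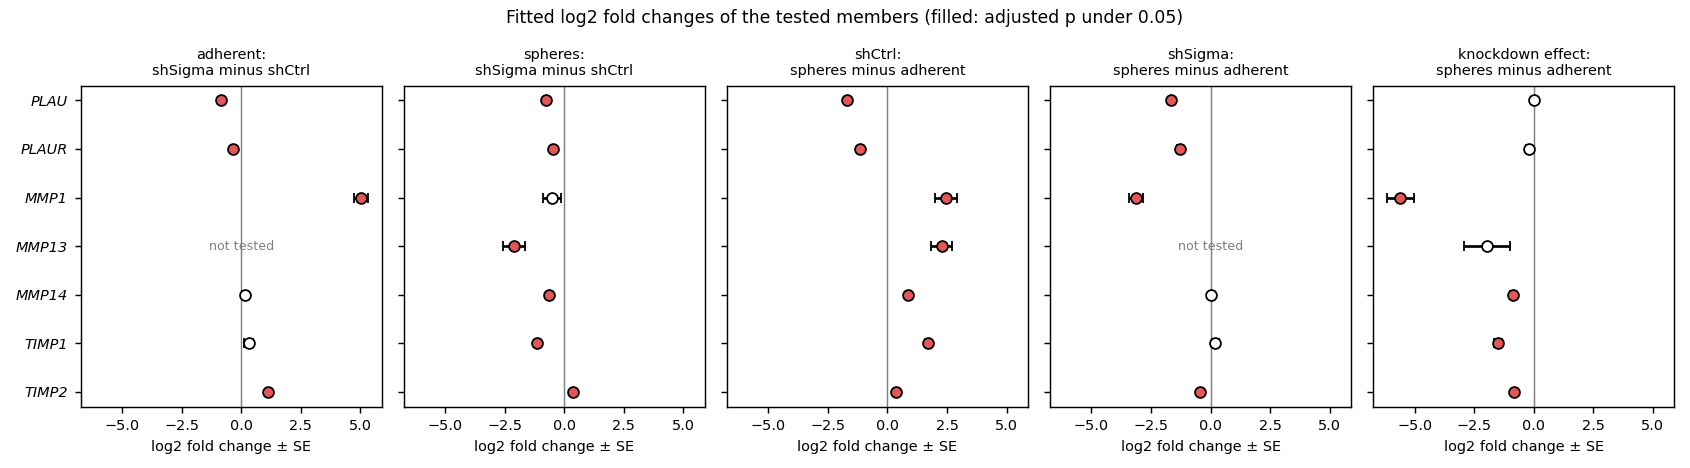
Fitted log2 fold changes (horizontal axis) with SE for the 7 genes that were tested at least once (rows), in the 4 comparisons of groups and for the difference between the knockdown effects (panels). Filled points have an edgeR adjusted p under 0.05, and bars narrower than a point are hidden by it. PLAU and PLAUR are left of 0 in the first 4 panels and TIMP2 is right of 0 in both knockdown panels, while MMP1 moves from 5.02 in adherent cells to -0.51 in spheres.

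Per exon length, urokinase, TIMP1 and TIMP2 led the set in all 4 groups. In adherent shCtrl the means were 433 ± 5.35 RPKM for PLAU, 38.7 ± 5.70 for TIMP1, 25.9 ± 2.46 for TIMP2, 11.8 ± 1.14 for PLAUR and 8.997 ± 1.43 RPKM for MMP14, and the other 5 genes were at most 0.0721 RPKM. In this order each of the first 4 genes lay above the next beyond the range of its libraries. In adherent shSigma TIMP2 at 59.5 ± 2.11 RPKM exceeded TIMP1 at 50.2 ± 9.65 RPKM with overlapping libraries, and MMP14 at 10.5 ± 0.410 and PLAUR at 9.80 ± 1.03 RPKM overlapped as well. In sphere shCtrl TIMP1 at 125 ± 4.58 RPKM came close to PLAU at 134 ± 6.76 RPKM, with overlapping libraries. In sphere shSigma PLAU had 78.3 ± 0.592, TIMP1 57.1 ± 1.94, TIMP2 43.2 ± 2.01, MMP14 10.6 ± 0.621 and PLAUR 3.92 ± 0.0407 RPKM, without overlap. Transcripts of the inhibitors TIMP1 and TIMP2 each exceeded those of any MMP in all 12 libraries. The order between genes depends on the length used. Exon and coding lengths are 2949 and 1327 bases for PLAU, 1446 and 868 for TIMP1 and 6209 and 707 for TIMP2. The genes were ranked over exon length only.

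**Figure D3:**
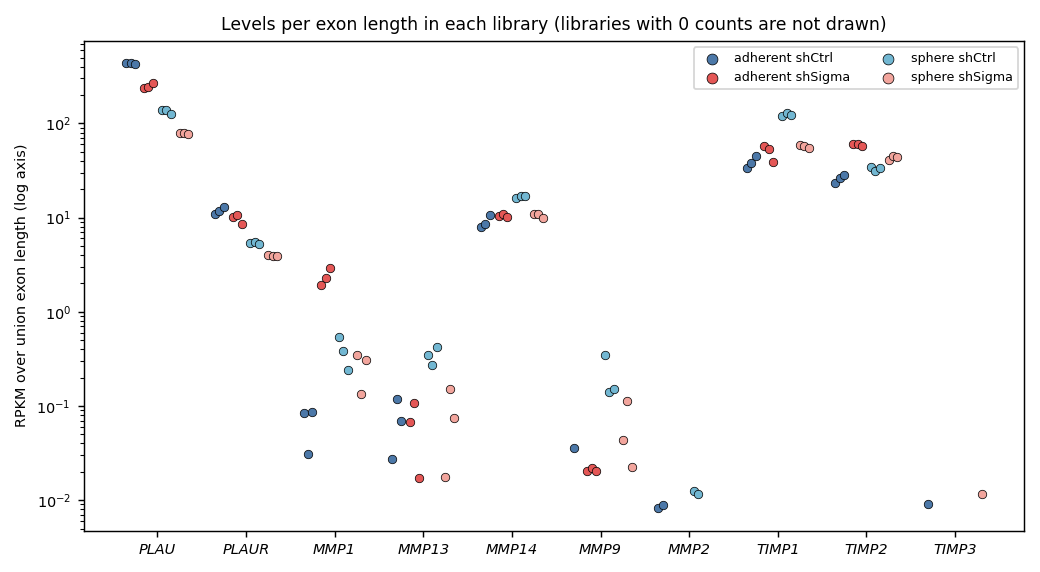
RPKM over exon length (vertical axis, logarithmic) of the 10 genes (horizontal axis) in the 12 libraries (points, coloured by group). Libraries with 0 counts are not drawn. PLAU, TIMP1, TIMP2, MMP14 and PLAUR lie at 3.90 RPKM or above in every library, while MMP1 reaches 2.92 RPKM in adherent shSigma and MMP2 appears in 4 libraries and TIMP3 in 2.

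Ratios within a library compared a protease or ligand with its partner, as a description without a test. The log2 ratio of MMP14 to TIMP2 was -1.53 ± 0.118 (SD, n = 3) in adherent shCtrl and -2.51 ± 0.0418 in adherent shSigma. In spheres it was -0.9997 ± 0.0955 in shCtrl and -2.03 ± 0.127 in shSigma. The ratio was thus lower with knockdown in both cultures, through higher TIMP2 in adherent cells and through lower MMP14 and higher TIMP2 in spheres, and the 4 groups did not overlap. The log2 ratio of PLAU to PLAUR was 5.20 ± 0.150 in adherent shCtrl, 4.67 ± 0.249 in adherent shSigma, 4.64 ± 0.0389 in sphere shCtrl and 4.32 ± 0.0132 in sphere shSigma, with adherent shSigma overlapping sphere shCtrl.

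**Figure D4:**
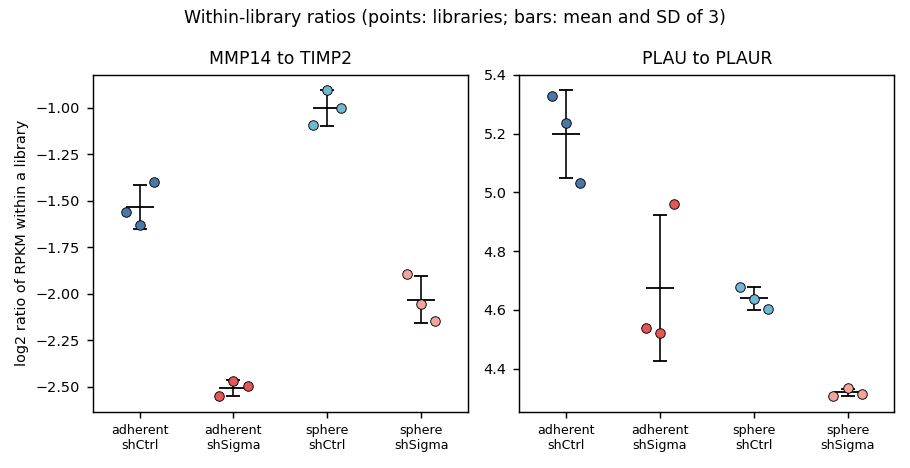
Log2 ratio of RPKM within each library (vertical axis, which does not start at 0) for MMP14 to TIMP2 and PLAU to PLAUR in the 4 groups (horizontal axis). Points are libraries, and lines and bars are the mean and SD of 3. The shSigma groups lie below the shCtrl groups of the same culture in each panel, at -2.51 against -1.53 in adherent cells and -2.03 against -0.9997 in spheres for MMP14 to TIMP2.

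Other genes of matrix proteolysis were counted in 5 lists that were chosen with earlier results of these data known. The groups through which a list gene passed the filter were looked up for named genes only. Of 19 other MMPs and TIMP4, 5 were tested in each culture, with 2 higher and 1 lower after knockdown in adherent cells and 1 higher and 2 lower in spheres. Of all genes tested, 22.3% were called higher and 27.7% lower in adherent cells and 30.2% higher and 30.9% lower in spheres, and this is the background for each of the 5 lists. MMP24, a membrane-type MMP with high expression in brain, had 20, 31 and 44 counts in adherent shCtrl against 1111, 1087 and 820 in adherent shSigma, and 14, 18 and 26 in sphere shCtrl against 1376, 1187 and 1295 in sphere shSigma. The rise was 5.22 (SE 0.298, edgeR adjusted p = 4.14e-05) and 5.98 (SE 0.124, edgeR adjusted p = 1.57e-11) on the log2 scale. MMP24OS on the opposite strand shares 806 exonic bases with it and rose as well, by 1.25 (SE 0.250, edgeR adjusted p = 0.00756) and 1.76 (SE 0.0706, edgeR adjusted p = 2.46e-09), from 36.5 ± 8.74 to 89.7 ± 20.3 CPM in adherent cells and from 33.7 ± 2.14 to 114 ± 6.496 CPM in spheres. MMP24OS had 566 to 2404 counts per library. As the use of strand in counting is not given, the 2 rises may not be independent of each other. MMP10, stromelysin 2, had 31, 29 and 38 counts in sphere shCtrl and 3, 2 and 1 in sphere shSigma (-4.01, SE 0.366, edgeR adjusted p = 2.08e-06), and 0 to 4 in the adherent libraries. Since MMP10 passed the filter through sphere shCtrl alone, this value and its place among the 2 lower genes are a description. MMP17 was only just called in adherent cells (1.87, edgeR adjusted p = 0.0458). That call was lost when 1 of adherent shSigma libraries 1 and 2 or adherent shCtrl libraries 1 and 2 was left out (edgeR adjusted p = 0.132 to 0.159). Without both adherent libraries numbered 1 MMP17 was at 1.49 (edgeR adjusted p = 0.366). MMP16 fell in adherent cells (-1.40, edgeR adjusted p = 9.38e-04). In spheres MMP17 was at -0.12 (edgeR adjusted p = 0.720) and MMP16 at 0.26 (edgeR adjusted p = 0.106). MMP3 and MMP7 had 0 to 3 counts in every library.

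In the plasminogen system and the pericellular serine proteases around it, the knockdown called 2 genes higher and 6 lower among 17 tested in adherent cells, and 2 higher and 9 lower among 19 tested in spheres, beside the 50.0% and 61.1% of all genes called. Without both adherent libraries numbered 1 the adherent count was 1 higher and 3 lower. The 9 lower genes in spheres include TMPRSS2, at a mean of 0.0530 CPM in sphere shSigma and 1.02 CPM in sphere shCtrl. Since TMPRSS2 passed the filter through sphere shCtrl alone, its place among them is a description. ST14 (matriptase), a membrane serine protease that can activate pro-urokinase, fell by 2.06 in adherent cells (SE 0.304, edgeR adjusted p = 0.00137) and by 3.94 in spheres (SE 0.132, edgeR adjusted p = 1.31e-08). Its level was 8.92 ± 3.11 CPM in adherent shCtrl, 2.21 ± 0.543 in adherent shSigma, 158 ± 23.7 in sphere shCtrl and 10.3 ± 0.987 CPM in sphere shSigma. SPINT1, the matriptase inhibitor HAI-1, fell with it, by 1.32 (SE 0.136, edgeR adjusted p = 2.02e-04) and 2.25 (SE 0.0612, edgeR adjusted p = 1.01e-10). MET, the receptor of hepatocyte growth factor, rose in spheres (1.67, SE 0.0660, edgeR adjusted p = 2.10e-09), with -0.09 (edgeR adjusted p = 0.366) in adherent cells, or -0.18 (edgeR adjusted p = 0.0410) without both libraries numbered 3. SERPINE2, which encodes the protease nexin that inhibits urokinase and thrombin, fell by 1.45 in spheres (edgeR adjusted p = 3.97e-06), with 0.05 (edgeR adjusted p = 0.820) in adherent cells.

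Among ADAM and ADAMTS proteases 4 of 18 tested genes were higher and 4 lower with knockdown in adherent cells, and 11 of 17 were higher and 3 lower in spheres, beside the 50.0% and 61.1% of all genes called. ADAM8, a sheddase, had 6, 6 and 15 counts in adherent shCtrl and 305, 285 and 156 in adherent shSigma (5.02, SE 0.456, edgeR adjusted p = 2.39e-04), and passed the filter in adherent cells through shSigma alone. This value and its place among the 4 higher genes in adherent cells are therefore a description. ADAM8 also rose in spheres (2.81, SE 0.175, edgeR adjusted p = 9.46e-08). ADAMTS15 rose by 3.58 (edgeR adjusted p = 5.46e-06) and 1.74 (edgeR adjusted p = 5.45e-07) and ADAMTS12 by 1.48 (edgeR adjusted p = 3.98e-04) and 1.15 (edgeR adjusted p = 2.32e-05). Of 15 tested cathepsins and cystatins, 8 were higher and 4 lower in adherent cells and 8 higher and 6 lower in spheres, beside the same shares of all genes. CTSD, lysosomal cathepsin D, rose in spheres (1.62, edgeR adjusted p = 1.49e-05), with 1.15 (edgeR adjusted p = 0.0769) in adherent cells, or 1.79 (edgeR adjusted p = 3.29e-04) without both libraries numbered 3 and 1.46 (edgeR adjusted p = 0.0168) without adherent shSigma library 3. CTSV fell in both (-1.24, edgeR adjusted p = 9.54e-05, and -0.71, edgeR adjusted p = 7.13e-06).

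Of 18 tested AP-1 and ETS factors, 2 were higher and 7 lower with knockdown in adherent cells, and 9 were higher and 5 lower in spheres, where 22.3% and 27.7% of all genes were called higher and lower in adherent cells and 30.2% and 30.9% in spheres. Without both adherent libraries numbered 3 the adherent count was 7 higher and 7 lower. ETS2 rose in both cultures (1.502, edgeR adjusted p = 5.87e-06, and 0.997, edgeR adjusted p = 9.35e-08). ETS1 fell in adherent cells (-0.74, edgeR adjusted p = 8.96e-05) and rose in spheres (1.22, edgeR adjusted p = 4.75e-08). ELF3, an epithelial ETS factor, went the other way, with a rise in adherent cells (1.68, edgeR adjusted p = 1.03e-04) and a fall in spheres (-0.54, edgeR adjusted p = 5.59e-05). ETV1 rose in spheres (1.32, edgeR adjusted p = 1.21e-05), with 0.32 (edgeR adjusted p = 0.0893) in adherent cells, or 0.49 (edgeR adjusted p = 0.0288) without adherent shCtrl library 1. The plot of both knockdown effects sets these genes beside the members tested in both cultures.

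**Figure D5:**
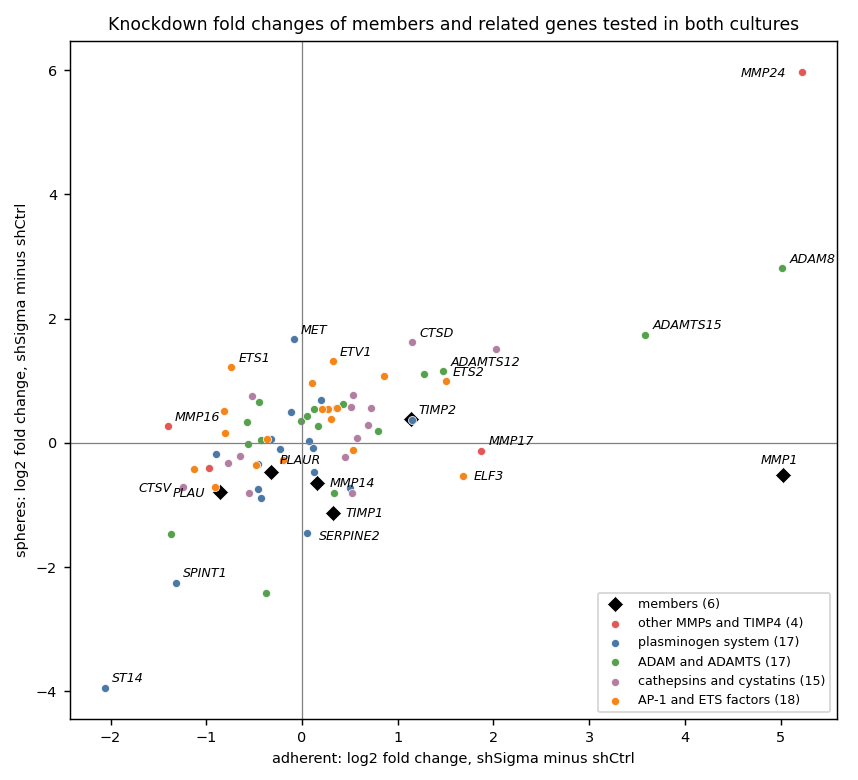
Log2 fold change with knockdown in adherent cells (horizontal axis) against that in spheres (vertical axis) for genes tested in both cultures, coloured by list, with the number of genes in the key. Black diamonds are the 6 members. MMP1 lies at 5.02 and -0.51, apart from ADAM8 at 5.02 and 2.81 and MMP24 at 5.22 and 5.98, PLAU and PLAUR lie at lower left, and TIMP2 lies at upper right.

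As a description, the genes with the group profiles most like those of each member were looked up over the 4 group means of 12 libraries among 10798 genes, by the root mean square difference of centred log2 CPM. The nearest to PLAU was PAX6 at 0.1252 log2 units, and to PLAUR UACA at 0.0308. TIMP1 was nearest to ATL1 at 0.0498 and TIMP2 to AVPI1 at 0.0331. MMP13 was nearest to MAP7 at 0.188. The profile of MMP1 had no close match, since the nearest gene, SHISAL1, lay at 0.877.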

How the data were processed

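RNA sequencing of 12 DU145 libraries was analysed from a table of raw counts per Ensembl gene. Per the labels, 800 ng of total RNA per sample went into a directional kit, and 75 nt were read from a single end. The authors aligned reads with STAR 2.6.1c to GRCh38.p12, per the submitters' processing notes, and deposited counts without normalization. Not given in the sources used here are the gene annotation, whether counting used strand and how reads with several alignments were handled. Groups came from the sample labels, 0 columns were left unused, and 26153 identifiers had a symbol in GENCODE release 44. Labels call the replicates independent.

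Counts were tested with edgeR 4.0.16 in R 4.3.3 (TMM scaling, filterByExpr at a minimum count of 10, robust quasi-likelihood, prior count 0.125, two-sided), each comparison on its own 6 libraries and the difference between knockdown effects on all 12. CPM used TMM-scaled library sizes over 12 libraries, and RPKM divided CPM by union exon length. The procedure was tested on simulated data. The 10 genes and all lists were chosen with earlier results of these data known. Members, 3 fixed genes (MMP3, MMP7, MMP10) and at most 4 genes per list, past adjusted p of 0.05 and log2 fold change of 1 with at least 5 CPM in a group, were named, and genes overlapping a member. MMP24OS was named after its values were seen. Other items under this rule are not reported here. Alternatives were DESeq2 1.42.0, other normalizations, filters and thresholds, 1 fit of all libraries, the replicate block, coding length and each library left out. Leaving out both adherent libraries numbered 3 or numbered 1, the same and single libraries for the named genes of lists, and MMP9 without the filter were added after seeing the data. Figures were drawn with matplotlib 3.10.9. Exact permutation of 3 against 3 libraries cannot go below p = 0.1 and was not used.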

Additional observations from a re-analysis of the deposited data

Results flagged for a closer look

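By the interaction of hairpin and culture in edgeR, the knockdown effect differed between tumor spheres and adherent cells for 3 of 5 genes. These 5 reached the filter's cutoff in every group, and 28.4% of all 14175 genes differed. MMP1 is added as a description. On the log2 scale, as spheres minus adherent cells, the difference was -5.59 for MMP1 (SE 0.569, adjusted p = 8.16e-06), with a rise in adherent cells of 5.02 and -0.51 in spheres. It was -1.501 for TIMP1 (SE 0.183, adjusted p = 7.54e-05) and -0.86 for MMP14 (SE 0.136, adjusted p = 3.33e-04), both of which fell in spheres and were not called in adherent cells. For TIMP2 the difference was -0.82 (SE 0.103, adjusted p = 5.58e-05), with a rise in both cultures. Over the alternatives the difference ran from -5.88 to -5.26 for MMP1, from -1.70 to -1.26 for TIMP1, from -0.95 to -0.72 for MMP14 and from -0.83 to -0.69 for TIMP2, and each stayed called wherever it was tested. MMP1 was not tested with at least 10 counts in every library, and it passed the filter only through adherent shSigma and sphere shCtrl, where it was high.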

How the results depend on the processing

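Of 508 values of single members under an alternative, 490 kept their direction and side of the threshold, 11 were no longer called, 5 became called and 2 changed sign. The sign changed for MMP14 in shSigma spheres against adherent cells, which was -0.011 to 0.082 with 1 library left out, the former without adherent shSigma replicate 3, and -0.011 again without both adherent libraries numbered 3. All 11 lost calls were PLAUR in adherent cells, with adjusted p = 0.0606 in DESeq2, 0.0696 with upper-quartile normalization, 0.0621 with at least 10 counts in every library and 0.0749 to 0.145 without single libraries. TIMP1 in adherent cells became called at 0.37 (adjusted p = 0.0272) in 1 fit of all 12 libraries. The cause was not tested.

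Members called in adherent cells numbered 2 with at least 10 counts in every library, where fewer genes were tested. With a log2 fold change over 1 they numbered 2 in adherent cells, 2 in spheres and 2 for the difference between effects. The counts past this fold take in MMP1 or MMP13, which passed the filter only through groups where they were high. Of the 5 genes at the filter's cutoff in every group, 1 in each passed the fold threshold, as did 13.7%, 13.1% and 8.54% of all genes. That threshold left 1889 of all genes in adherent cells, 1806 in spheres, 2180 between cultures of shCtrl, 1270 between cultures of shSigma and 1210 for the difference, and an adjusted p under 0.01 left 3911 between cultures of shSigma and 2508 for the difference. With 1 library left out, members called were 3 to 4, 6 to 6, 7 to 7, 4 to 4 and 4 to 4, with MMP1 and MMP13 counted where tested. With all libraries the 5 genes at the cutoff in every group gave 3, 5, 5, 3 and 3 calls. All genes called with 1 library left out were 5160 to 7101, 7557 to 8260, 5679 to 8364, 4723 to 7753 and 3232 to 4691, in the same order.

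Same-numbered libraries did not deviate together in every pair (correlations of -0.902 to -0.020 between adherent groups, -0.159 to 0.049 between sphere groups, -0.546 to 0.309 between shCtrl groups and -0.067 to 0.517 between shSigma groups), so the numbers were not taken to pair the samples. With the replicate block, 4874 genes were called in adherent cells and 8166 in spheres, PLAUR in adherent cells was at -0.33 (adjusted p = 0.123), and no other member changed its call.

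Over coding length in place of exon length the log2 ratio of MMP14 to TIMP2 was -3.46, -4.44, -2.93 and -3.96 and that of PLAU to PLAUR 4.57, 4.05, 4.01 and 3.69 in adherent shCtrl, adherent shSigma, sphere shCtrl and sphere shSigma in turn. The order of the groups was the same, since length scales all libraries alike. Depth limits MMP2, MMP9, TIMP3 and, outside sphere shCtrl, MMP13, whose counts allow no more than the intervals given.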
